A study of Homo sapiens with 8 samples.

Results

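The genes described here are 8 human chemokine genes, the CXC genes CXCL1, CXCL2, CXCL3, CXCL5, CXCL8 and CXCL16 and the CC genes CCL2 and CCL20, chosen by name from 36715 genes in the count table. All 8 had a row in that table and at least 1 read somewhere, and 6 passed the filter on low counts and were tested. The 8 RNA-seq libraries came from MDA-MB-231, an established human triple-negative breast cancer line grown in culture. Cells received EMD37 at 0.5 µM for 12 h, DMSO vehicle for 12 h, EMD37 at 0.5 µM for 24 h or DMSO vehicle for 24 h. Each of the 4 groups had libraries A and B. EMD37 is known here by its code name alone. No cells were collected untreated, the study used 1 cell line and 1 dose, and the labels did not say whether A and B were separate cultures, so the p-values reflect the spread between libraries, which may be technical.

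Chemokines are small secreted proteins that bind G-protein-coupled receptors on other cells and direct their migration. CXCL1, CXCL2, CXCL3, CXCL5 and CXCL8 (interleukin-8) bind CXCR2 and attract neutrophils, CCL2 binds CCR2 and attracts monocytes, CCL20 binds CCR6, and CXCL16 is made as a membrane-anchored protein whose receptor is CXCR6. In epithelial and tumour cells several of these genes are switched on by inflammatory cytokines through NF-kB, AP-1 and C/EBP factors, and their short-lived mRNAs are controlled by RNA-decay proteins.

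CXCL8 (ENSG00000169429), CXCL1 (ENSG00000163739), CXCL5 (ENSG00000163735), CXCL3 (ENSG00000163734) and CXCL2 (ENSG00000081041) lie in this order along chromosome 4 on GRCh38. Their GENCODE 29 spans are 73740506 to 73743716, 73869393 to 73871242, 73995642 to 73998779, 74036589 to 74038807 and 74097035 to 74099293. CXCL16 (ENSG00000161921, 4733526 to 4739922) and CCL2 (ENSG00000108691, 34255218 to 34257203) are on chromosome 17. CCL20 (ENSG00000115009, 227805739 to 227817564) is on chromosome 2.

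Promoters are shown because 5 of these genes rose together at 12 h. CXCL5, which did not pass the filter, carries the string GGAATTTCC, as do CXCL1, CXCL2, CXCL3 and CXCL8 but not CCL20. RefSeq promoters on GRCh38.p14 were matched for 6 of the 8 genes, all but CXCL16 and CCL2. The 120 bases before each RefSeq start are printed on the gene's own strand. The RefSeq start of CXCL1 is that of the GENCODE span above, while the starts of the other 5 lie inside their GENCODE spans, so these windows fall partly or, for CCL20, wholly within the span. Capitals mark letters covered by the NF-kB consensus on either strand or by GGAATTTCC on either strand, and these matches overlap.
CXCL8, chr4:73740449-73740568, plus strand: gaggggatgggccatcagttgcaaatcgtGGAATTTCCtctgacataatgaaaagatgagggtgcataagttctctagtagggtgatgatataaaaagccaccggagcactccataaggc
CXCL1, chr4:73869273-73869392, plus strand: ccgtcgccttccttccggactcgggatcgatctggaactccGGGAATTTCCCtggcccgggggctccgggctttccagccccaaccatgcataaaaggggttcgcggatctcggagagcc
CXCL2, chr4:74099196-74099315, minus strand: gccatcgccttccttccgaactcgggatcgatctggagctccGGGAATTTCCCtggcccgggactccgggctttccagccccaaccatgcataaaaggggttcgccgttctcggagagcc
CXCL3, chr4:74038690-74038809, minus strand: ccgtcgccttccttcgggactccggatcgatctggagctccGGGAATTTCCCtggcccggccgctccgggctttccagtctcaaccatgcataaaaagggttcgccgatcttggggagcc
CXCL5, chr4:73998678-73998797, minus strand: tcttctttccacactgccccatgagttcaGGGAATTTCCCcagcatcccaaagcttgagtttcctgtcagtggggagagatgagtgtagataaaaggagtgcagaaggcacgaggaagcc
CCL20, chr2:227813722-227813841, plus strand: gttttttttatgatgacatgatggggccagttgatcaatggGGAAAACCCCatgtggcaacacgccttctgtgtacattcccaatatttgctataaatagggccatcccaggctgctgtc

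The marked matches started 77 to 91 bases before the RefSeq start. Over the 300-base table windows, the NF-kB consensus was found in 5 of these 6 promoters, all but CXCL8, and in 11.3% of 35116 promoters. GGAATTTCC, a string picked after the sequences were seen, was found in CXCL1, CXCL2, CXCL3, CXCL5 and CXCL8 and in 0.461% of all promoters. The AP-1 string TGANTCA matched CXCL8 alone, 137 bases before its start, against 7.71% of all promoters, and TGATGNAA, a C/EBP and ATF string, matched none of the 6 and 3.62% of all. CXCL1 and CXCL3 were identical at 82.5% of aligned promoter positions, CXCL2 and CXCL3 at 73.8% and CXCL1 and CXCL2 at 71.9%. A match describes letters in this window and is not a measure of binding.

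Counted reads per library ranged from 8994977 to 11437813, and replicate libraries correlated at 0.988 to 0.992. In CPM (reads of a gene scaled to a common library size), the line's markers VIM, CD44 and EGFR ranged from 1280 to 1740, 899 to 1270 and 215 to 423, while ESR1, PGR and ERBB2 stayed at or below 2.49, 3.98 and 5.18. The 14 leukocyte markers summed to 3.19 to 6.79 CPM in any library, with LYZ and MPO at 0. By group, that sum was 5.27 to 6.54 CPM in EMD37 and 4.37 to 4.70 CPM in vehicle libraries at 12 h. At 24 h it was 3.19 to 5.60 CPM in EMD37 libraries and at most 6.79 CPM in vehicle libraries. A few genes that cultured cells normally express strongly had low counts (ACTB averaged 8.09 CPM, against 4670 for ACTG1). The sources used here give no reason, so a low value in the table may reflect the counting.

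At 12 h EMD37 raised 5 of the 6 tested genes, and none was lower. Over all 14850 genes tested, 5.27% were called higher and 3.43% lower, a call being a Benjamini-Hochberg adjusted p below 0.05 in the quasi-likelihood test of edgeR. With library totals alone in place of TMM factors the split was 4.58% higher and 5.32% lower, and the same 5 genes were called. The median log2 fold change was 2.30 over the 6 genes and -0.01 over all genes tested. In bulk RNA, more cells making a transcript and more of it per cell cannot be told apart.

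CXCL8 had 351 and 311 CPM in EMD37 libraries A and B at 12 h, against 25.3 and 24.97 CPM in vehicle libraries. Both EMD37 libraries lay far above both vehicle libraries, with no overlap. The fitted difference was 13.2-fold (log2 3.72, standard error 0.10, adjusted p = 3.36e-13 in the same edgeR test).

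The 3 paralogs CXCL1, CXCL2 and CXCL3, also called GRO alpha, beta and gamma, rose by unequal amounts at 12 h. CXCL2 had 48.4 and 43.7 CPM in EMD37 libraries, against 4.98 and 5.22 CPM in vehicle libraries. CXCL3 had 29.5 and 32.6 CPM in EMD37 libraries, against 4.27 and 4.02 CPM in vehicle libraries. CXCL1 had 58.8 and 55.5 CPM in EMD37 libraries, against 15.6 and 19.8 CPM in vehicle libraries. For each of the 3 genes both EMD37 libraries were above both vehicle libraries, and CXCL1 had the highest vehicle level of the 3. In edgeR's quasi-likelihood test, CXCL2 rose 9-fold (log2 3.17, standard error 0.15, adjusted p = 1.19e-10), CXCL3 7.48-fold (log2 2.90, 0.18, 5.28e-09) and CXCL1 3.22-fold (log2 1.69, 0.14, 2.36e-07). Of the 50-base words in their transcripts, 4.81% for CXCL1, 12.5% for CXCL2 and 6.01% for CXCL3 also occur in another of the 3, so a part of their reads may be shared or lost.

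CCL20, the CCR6 ligand, had 2.49 and 3.19 CPM (27 and 32 reads) in EMD37 libraries at 12 h, against 0.915 and 0.941 CPM (9 and 11 reads) in vehicle libraries. The groups did not overlap, but the reads were few. It rose 3.02-fold (log2 1.59, standard error 0.43, adjusted p = 0.0209 in edgeR's quasi-likelihood test). That call was lost without any 1 of the 4 libraries of 12 h, with adjusted p of 0.0746 to 0.193 in edgeR, against 0.00108 to 0.193 over all its alternatives.

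CXCL16 had 6 and 4 reads in EMD37 libraries at 12 h, against 4 and 6 reads in vehicle libraries, and the groups overlapped. Its log2 difference was 0.04, with a 95% confidence interval of -1.34 to 1.43. Differences within that interval were not excluded with so few reads. In the annotation, 3.04% of CXCL16 exon bases lie over MED11 on the opposite strand, and the library kit did not mark strand.

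**Figure D1:**
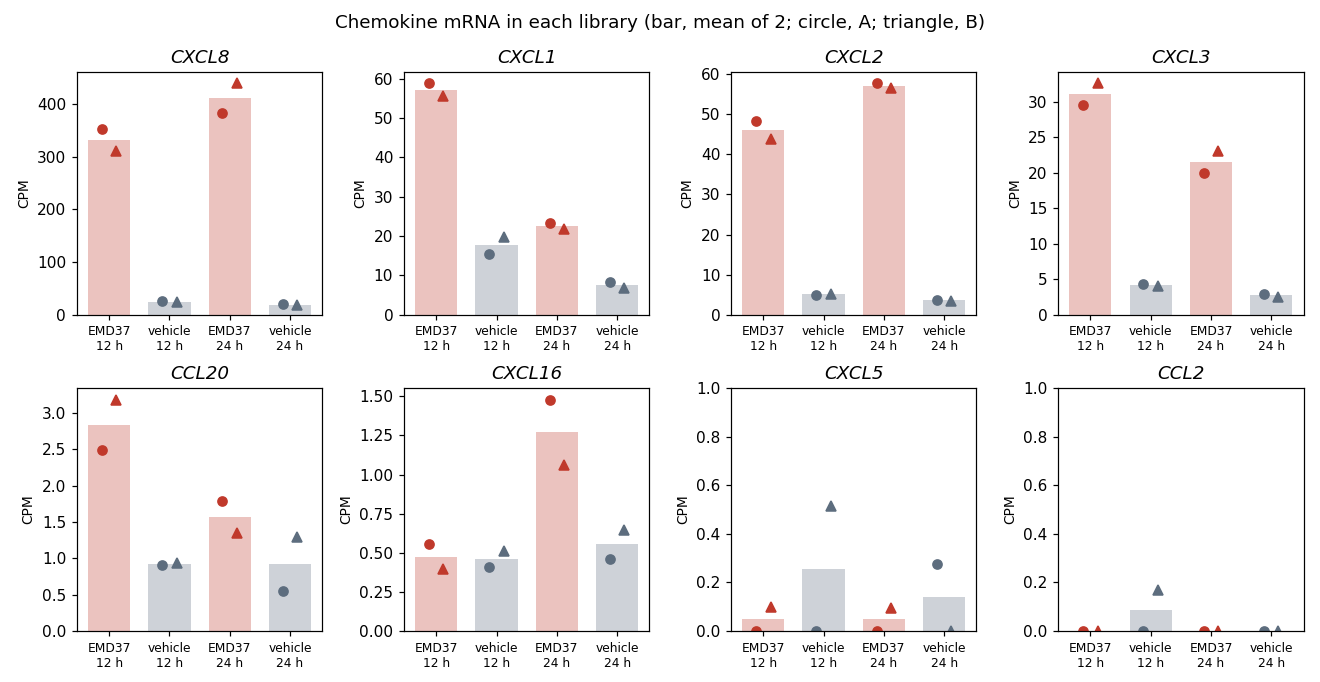
CPM of each chemokine mRNA (linear axis from 0, a separate scale per gene) in EMD37 and vehicle libraries at 12 h and 24 h; bars are means of 2 libraries, circles library A and triangles library B. CXCL8 reached 311 to 439 CPM in the 4 EMD37 libraries and 18.6 to 25.3 CPM in the 4 vehicle libraries, while CXCL5 and CCL2 stayed below 1 CPM throughout.

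CXCL5 and CCL2 were hardly detected. CXCL5 had 0 and 1 reads in EMD37 libraries and 0 and 6 in vehicle libraries at 12 h, then 0 and 1 in EMD37 libraries and 3 and 0 in vehicle libraries at 24 h. CCL2, a monocyte attractant, had 2 reads in all, both in vehicle library B at 12 h. A count of 3 reads, taken as the floor, equals 0.257 to 0.323 CPM in these libraries and covers counting error only. No fold change was read from either gene.

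At 24 h the same 4 CXC genes were higher with EMD37, CXCL8, CXCL2, CXCL3 and CXCL1, and neither CCL20 nor CXCL16 was called. Across all tested genes 19.6% were called higher and 21.1% lower, against 5.27% and 3.43% at 12 h. With library totals alone the split at 24 h was 15.9% higher and 26.5% lower. The median log2 fold change was 2.27 over the 6 genes and -0.03 over all genes tested.

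CXCL8 had 383 and 439 CPM in EMD37 libraries at 24 h, against 19.8 and 18.6 CPM in vehicle libraries. CXCL2 had 57.7 and 56.5 CPM in EMD37 libraries, against 3.61 and 3.56 CPM in vehicle libraries. Neither gene's groups overlapped, and the EMD37 libraries at 24 h were the highest of all 8 for both. CXCL8 rose 21.3-fold (log2 4.42, standard error 0.11, adjusted p = 1.1e-13) and CXCL2 15.9-fold (log2 3.99, 0.17, 6.16e-12) in edgeR's quasi-likelihood test. By log2 fold change CXCL8 ranked 19 and CXCL2 33 among the 14850 genes.

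CXCL3 had 19.96 and 23.1 CPM in EMD37 libraries at 24 h, against 2.96 and 2.48 CPM in vehicle libraries. CXCL1 had 23.2 and 21.8 CPM in EMD37 libraries, against 8.33 and 6.79 CPM in vehicle libraries. Both EMD37 libraries were above both vehicle libraries for each gene. CXCL3 rose 7.85-fold (log2 2.97, standard error 0.21, adjusted p = 4.36e-09) and CXCL1 2.96-fold (log2 1.57, 0.17, 1.07e-06) in edgeR's quasi-likelihood test.

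CXCL16 had 1.48 and 1.06 CPM (14 and 11 reads) in EMD37 libraries at 24 h, against 0.463 and 0.646 CPM (5 and 6 reads) in vehicle libraries. CCL20 had 1.80 and 1.35 CPM in EMD37 libraries, against 0.555 and 1.29 CPM in vehicle libraries. The groups did not overlap for either gene, though CCL20 in EMD37 library B and vehicle library B nearly met. In edgeR's quasi-likelihood test neither passed, with log2 1.19 for CXCL16 (95% confidence interval 0.03 to 2.34, adjusted p = 0.0804) and 0.79 for CCL20 (-0.21 to 1.79, adjusted p = 0.191). CXCL16 passed the filter on low counts only through the EMD37 libraries of 24 h, where it was high. Its lack of overlap and its interval are therefore description and no support for a rise. The CCL20 value was 0.30 without vehicle A and 1.47 without vehicle B of 24 h.

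**Figure D2:**
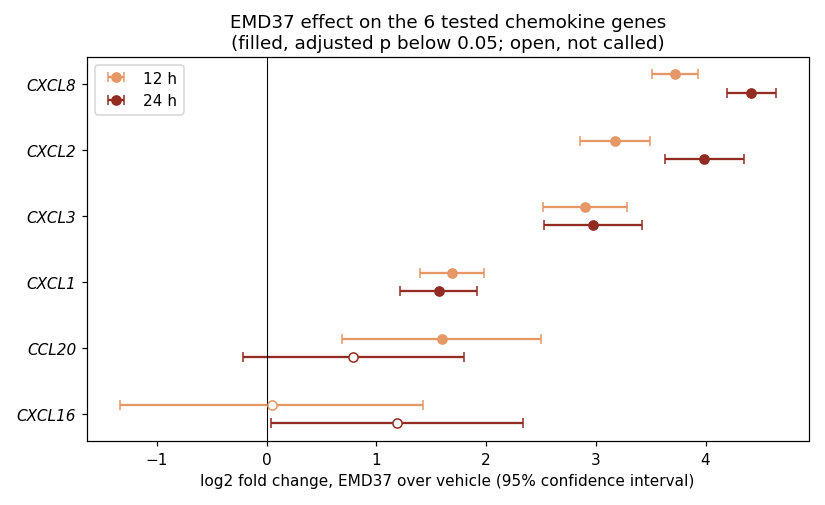
Log2 fold change of EMD37 over vehicle with its 95% confidence interval for the 6 tested chemokine genes at 12 h (light) and 24 h (dark); filled points passed the adjusted p threshold of 0.05. CXCL8 and CXCL2 lie farthest right at both times, and the intervals of CCL20 and CXCL16, which had few reads, are the widest.

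The EMD37 effect on CXCL8 and on CXCL2 was larger at 24 h than at 12 h. In the test of the difference itself, 7.96% of all genes had a higher effect at 24 h and 7.94% a lower one. The difference was log2 0.70 for CXCL8 (standard error 0.14, adjusted p = 0.00368, edgeR's quasi-likelihood test) and 0.82 for CXCL2 (0.23, adjusted p = 0.0204). For both genes the fitted changes between the times were up with EMD37 and down in vehicle. Neither vehicle change was called (adjusted p = 0.0656 for CXCL8 and 0.134 for CXCL2 in edgeR's quasi-likelihood test). From 12 h to 24 h, CXCL8 changed by 0.31 in EMD37 and -0.38 in vehicle libraries, and CXCL2 by 0.31 and -0.51. The CXCL8 difference passed under all 15 alternatives. The CXCL2 difference passed with all libraries in but was lost when 1 of 5 libraries was left out in turn, vehicle A or B at 12 h, EMD37 B at 12 h, or EMD37 A or B at 24 h, with adjusted p of 0.0506 to 0.0814 in edgeR, against 0.0176 to 0.0814 over all its alternatives. For CXCL1 and CXCL3 the difference was -0.12 (95% confidence interval -0.58 to 0.33) and 0.07 (-0.52 to 0.66). For CXCL16 it was 1.14 (-0.66 to 2.94) and for CCL20 -0.80 (-2.16 to 0.55).

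Within EMD37-treated cells, 4 of the 6 genes changed between the times, 2 in each direction. Of all genes 15.5% were called higher and 15.7% lower at 24 h than at 12 h. CXCL1, at 23.2 and 21.8 CPM at 24 h against 58.8 and 55.5 CPM at 12 h, fell by 1.34 on the log2 scale (standard error 0.13, adjusted p = 1.43e-06, edgeR's quasi-likelihood test). CXCL3 fell by 0.53 (0.14, adjusted p = 0.00953 in edgeR), CXCL8 rose by 0.31 (0.08, adjusted p = 0.00883 in edgeR) and CXCL2 rose by 0.31 (0.11, adjusted p = 0.0417 in edgeR). The small changes depended on single libraries. CXCL3 missed the threshold without EMD37 B at 12 h or EMD37 A at 24 h (adjusted p = 0.115 and 0.128 in edgeR; 0.000656 to 0.128 over its alternatives). CXCL8 missed it without EMD37 B at 12 h or EMD37 B at 24 h (adjusted p = 0.147 and 0.132 in edgeR; 0.000285 to 0.147 over its alternatives). CXCL2 missed it without any 1 of the 4 EMD37 libraries and under 4 other settings, with adjusted p of 0.00788 to 0.254 over its alternatives in edgeR and DESeq2.

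Vehicle-treated cells changed too, and CXCL1 was the one called gene of the 6. Of all genes 2.75% were called higher and 3.25% lower at 24 h. CXCL1 had 8.33 and 6.79 CPM in vehicle libraries at 24 h, against 15.6 and 19.8 CPM at 12 h. It fell by 1.22 on the log2 scale (standard error 0.17, adjusted p = 0.000752 in edgeR's quasi-likelihood test), beside the fall of 1.34 in EMD37 libraries. CXCL8 (-0.38, adjusted p = 0.0656), CXCL2 (-0.51, adjusted p = 0.134) and CXCL3 (-0.60, adjusted p = 0.146) had negative log2 changes that were not called in edgeR. CXCL8 was called without vehicle A at 24 h and with no filter on low counts (adjusted p = 0.0342 and 0.0414 in edgeR; 0.0342 to 0.311 over its alternatives).

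The balance among the paralogs therefore differed between groups. Expressed per kb of annotated exon, the CXCL2 to CXCL1 ratio was 0.711 and 0.680 in EMD37 libraries and 0.277 and 0.228 in vehicle libraries at 12 h. At 24 h it was 2.14 and 2.24 in EMD37 libraries and 0.374 and 0.453 in vehicle libraries. EMD37 at 24 h was the one group in which CXCL2 exceeded CXCL1. The CXCL3 to CXCL1 ratio was 0.293 and 0.342 in EMD37 libraries and 0.160 and 0.119 in vehicle libraries at 12 h. At 24 h it was 0.502 and 0.618 in EMD37 libraries and 0.208 and 0.213 in vehicle libraries. At each time both ratios were higher in both EMD37 libraries, as description with no test. Exon length here merges all annotated transcripts, retained introns included, which lowers the per-kb level of a gene in every group alike. The merged exons formed 1 block in CXCL3, 2 in CXCL2, 3 in CXCL8 and 4 in CXCL1. Levels per kb of different genes are therefore approximate.

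**Figure D3:**
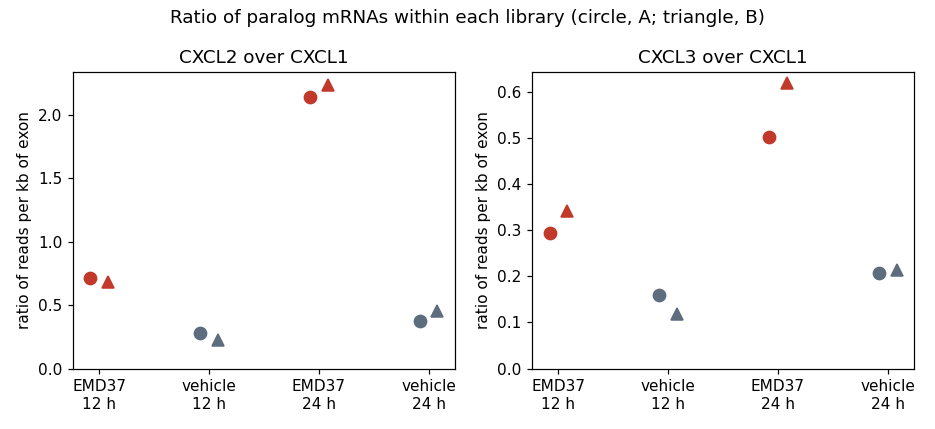
Ratio of CXCL2 to CXCL1 (left) and CXCL3 to CXCL1 (right), in reads per kb of exon, within each library (circle A, triangle B; axes from 0). EMD37 libraries at 24 h stand highest, at 2.14 and 2.24 for CXCL2 and at 0.502 and 0.618 for CXCL3.

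By level per kb, the order in EMD37 cells at 12 h was CXCL8 (146 ± 12.6 CPM per kb), CXCL1 (44.1 ± 1.78), CXCL2 (30.7 ± 2.21), CXCL3 (13.98 ± 0.974), CCL20 (1.78 ± 0.309) and CXCL16 (0.170 ± 0.0392), each as SD of 2 libraries. In vehicle cells at 12 h CXCL1 came before CXCL8, at 13.6 ± 2.30 and 11.1 ± 0.104 CPM per kb (n = 2), a gap close to the SD of CXCL1. Without division by exon length the order was the reverse, with means of 17.65 CPM for CXCL1 and 25.14 CPM for CXCL8. In EMD37 cells at 24 h CXCL2 (38.0 ± 0.556) came before CXCL1 (17.4 ± 0.771), behind CXCL8 at 181 ± 17.3 CPM per kb. In vehicle cells at 24 h CXCL8 (8.45 ± 0.363) was again first and CXCL1 (5.83 ± 0.841) next, while CCL20 (0.580 ± 0.327) and CXCL16 (0.199 ± 0.0465) differed by little more than the SD of CCL20. CCL20 and CXCL16 were the lowest of the 6 in every group.

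Summed over the 8 genes, chemokine mRNA made up 491 and 446 CPM in EMD37 libraries at 12 h, against 51.4 and 56.1 CPM in vehicle libraries. At 24 h the sum was 487 and 542 CPM in EMD37 libraries, against 36.0 and 33.4 CPM in vehicle libraries. CXCL8 alone supplied 71.5% and 69.6% of that sum in EMD37 libraries and 49.2% and 44.5% in vehicle libraries at 12 h. At 24 h it supplied 78.6% and 80.8% in EMD37 libraries and 55.0% and 55.8% in vehicle libraries.

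Chromosome 4 holds 9 protein-coding genes over 358.8 kb from CXCL8 to CXCL2, and nearly all reads fell on 4 of them. Over the 8 libraries CXCL8 had 16032 reads, CXCL2 2277, CXCL1 2179 and CXCL3 1219. The genes between them, CXCL6, PF4V1, PF4, PPBP and CXCL5, had 2, 1, 18, 3 and 11 reads in all. CXCL5, 255.1 kb from CXCL8, shares the letters GGGAATTTCCC with CXCL1, CXCL2 and CXCL3 in the promoters printed above. Whether these letters bear on the level of any of the genes was not tested.

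**Figure D4:**
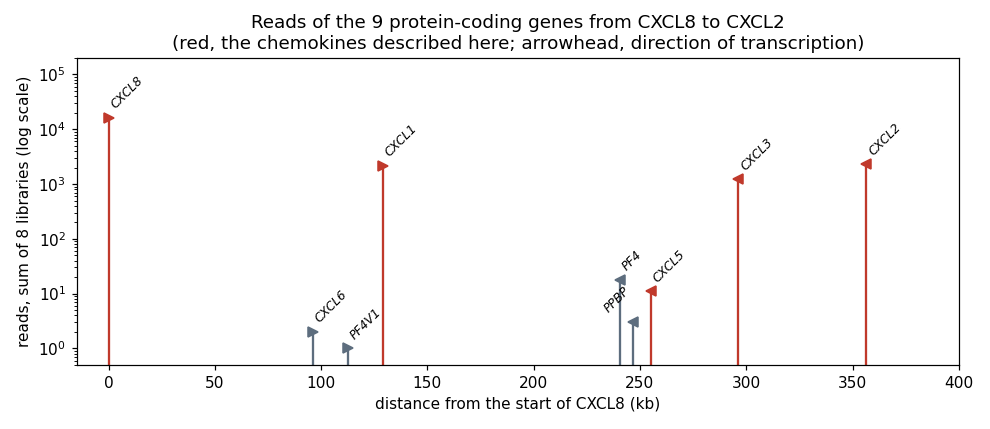
Reads summed over 8 libraries (log axis) for the 9 protein-coding genes from CXCL8 to CXCL2, by distance from the start of CXCL8 in kb; arrowheads give the direction of transcription and red marks the genes described here. CXCL8, CXCL1, CXCL3 and CXCL2 have at least 1219 reads, and the 5 genes between them have at most 18.

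Few other chemokine ligands had enough reads to be tested. Of 36 other ligands, 28 were in the count table, 4 of these had no reads and 3 were tested. The other 8 lie past the point where the count table as used here ends. Of these only CCL5 had recovered reads, and the level of the rest, CCL3 and CCL4 among them, is unknown. CCL26 (eotaxin-3, a CCR3 ligand) had 15 and 20 reads in EMD37 libraries at 24 h, against 2 and 3 reads in vehicle libraries. Its log2 fold change was 2.76 (standard error 0.69). CCL26 passed the filter on low counts only through the EMD37 libraries of 24 h, where it was high. This value is therefore description, and no test is drawn from it. At 12 h it had 2 and 1 reads in EMD37 libraries, against 5 and 4 in vehicle libraries, and was not called. CCL28, a mucosal chemokine, had 11.3 and 11.1 CPM in EMD37 libraries at 24 h, against 11.1 and 10.3 CPM in vehicle libraries (log2 0.06, 95% confidence interval -0.29 to 0.41).

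Most receptors of these ligands had almost no reads. Of 23 receptors, 3 were tested, and CXCR1 and CXCR2, the receptors of CXCL8 and the GRO proteins, had at most 2 and 3 reads in any library. CCR6 and CCR2 had at most 2 and 7 reads. CXCR6, the CXCL16 receptor, was tested and not called, with log2 -0.10 (95% confidence interval -0.63 to 0.43) at 12 h and -0.34 (-0.90 to 0.21) at 24 h. CCRL2, an atypical receptor that binds chemerin, had 28.0 and 23.8 CPM in EMD37 libraries at 24 h, against 20.1 and 19.6 CPM in vehicle libraries. It was called higher at log2 0.38 (adjusted p = 0.0395 in edgeR), a call lost in 8 of 16 alternatives (adjusted p of 0.0291 to 0.254).

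In EMD37 against vehicle, transcription factors and regulators known to act on chemokine genes moved in 1 direction where called. Of 24 tested of 25, 11 rose and 0 fell at 12 h, and 17 rose and 0 fell at 24 h, with medians of 0.56 and 0.92 on the log2 scale. Of all genes 5.27% were called higher and 3.43% lower at 12 h, and 19.6% and 21.1% at 24 h. At 12 h the largest rises were in ATF3, a stress-induced bZIP factor (log2 2.71), CEBPB (1.61), the A20-binding protein TNIP1 (1.02) and RELB (1.01), a subunit of NF-kB. CEBPB had 95.7 and 78.3 CPM in EMD37 libraries at 12 h, against 25.4 and 31.2 CPM in vehicle libraries. At 24 h they were in TNFAIP3, which encodes the NF-kB inhibitor A20 (log2 3.32), ATF3 (3.15), NFKBIA, which encodes IkB alpha (2.75), and CEBPB (2.12). Between the times these regulators went both ways. In EMD37 cells 11 were called higher and 2 lower at 24 h than at 12 h, beside 15.5% and 15.7% of all genes. In vehicle cells 1 was higher and 1 lower, beside 2.75% and 3.25%. FOS, at log2 1.54 against vehicle at 24 h, changed between the times by -0.49 in EMD37 and -1.38 in vehicle cells.

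TNFAIP3 had 164 and 171 CPM in EMD37 libraries at 24 h, against 14.2 and 19.5 CPM in vehicle libraries. At 12 h it had 25.7 and 28.7 CPM in EMD37 libraries, against 20.2 and 19.6 CPM in vehicle libraries. Its effect was larger at 24 h by log2 2.87 (standard error 0.18, adjusted p = 6.6e-08 in edgeR's quasi-likelihood test), and that of NFKBIA by 1.93 (0.34, adjusted p = 0.00112). At 12 h TNFAIP3 was already called, at log2 0.45 (adjusted p = 0.0411 in edgeR). NFKBIA had 5.07 and 4.58 CPM in EMD37 libraries at 12 h, against 2.13 and 3.25 CPM in vehicle libraries, with no overlap (log2 0.82, adjusted p = 0.055 in edgeR). RELA, NFKB1 and NFKB2 had log2 fold changes of 0.29, 0.69 and 0.74 at 12 h, not called, and 0.59, 0.75 and 1.51 at 24 h, called. Their differences between the times, 0.30, 0.06 and 0.77, did not pass (adjusted p = 0.264, 0.94 and 0.195 in edgeR).

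**Figure D5:**
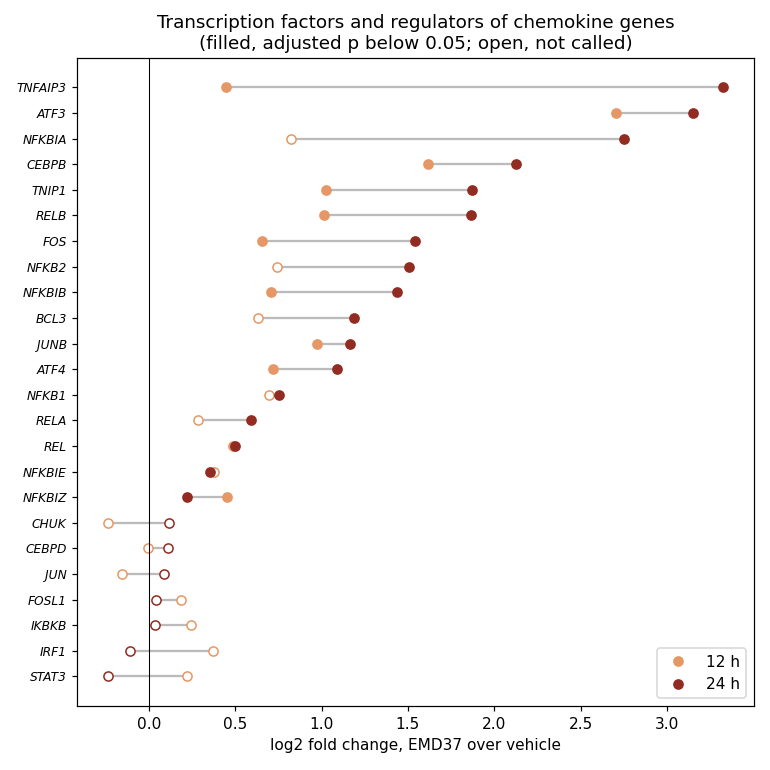
Log2 fold change of EMD37 over vehicle for 24 tested transcription factors and regulators of chemokine genes at 12 h (light) and 24 h (dark); filled points passed an adjusted p of 0.05. TNFAIP3 shows the widest gap between the times, at 0.45 and 3.32, and no filled point lies left of 0.

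Of 10 genes for proteins that shorten or lengthen the life of chemokine mRNAs, 2 rose and 0 fell at 12 h, where 5.27% of all genes rose and 3.43% fell. At 24 h 4 rose and 1 fell, where 19.6% of all genes rose and 21.1% fell. ZC3H12A, which encodes the RNase regnase-1, rose by log2 1.44 at 12 h and 1.77 at 24 h, and ZFP36L1 by 0.70 and 1.16. The ZC3H12A value at 12 h was 1.03 without vehicle A and 2.14 without vehicle B, and its call was lost without vehicle A or without EMD37 A of that time (adjusted p up to 0.0647 in edgeR). At 24 h ZFP36, which encodes tristetraprolin, rose by 1.13 and RC3H1, which encodes roquin-1, by 0.99. ELAVL1, which encodes the stabilising protein HuR, fell by 0.30 at 24 h (adjusted p = 0.00383 in edgeR), and was named after its values were seen.

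Among the cytokines and receptors that induce these chemokines, 3 of 12 tested rose and 1 fell at 12 h, beside 5.27% and 3.43% of all genes. At 24 h 6 rose and 0 fell, beside 19.6% and 21.1% of all genes. IL6 had 55.1 and 48.4 CPM in EMD37 libraries at 12 h, against 7.52 and 6.07 CPM in vehicle libraries. At 24 h it had 218 and 230 CPM in EMD37 libraries, against 10.1 and 9.16 CPM in vehicle libraries. It rose by log2 2.94 at 12 h and 4.54 at 24 h, and the difference of 1.60 passed (adjusted p = 3e-05 in edgeR). IL1A rose by 2.08 and 3.19, and IL1B by 1.78 at 12 h, with 0.83 at 24 h not called (adjusted p = 0.0506 in edgeR). TLR2 rose by 1.88 and OSMR by 0.90 at 24 h, and TNF had at most 1 read in any library. TLR4 rose by 0.53 at 24 h (adjusted p = 3.02e-05 in edgeR). At 12 h it fell by 0.25, a call lost in 10 of 16 alternatives, and the difference between its effects was 0.78 (adjusted p = 0.000112 in edgeR).

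Genes that release, trim or bind chemokines at the cell surface gave 2 rises and 1 fall of 12 tested at 12 h, beside 5.27% and 3.43% of all genes. At 24 h they gave 2 rises and 4 falls, beside 19.6% and 21.1% of all genes, and the counts are not read as a result about the list. MMP1, an interstitial collagenase, rose by log2 0.65 at 12 h and 2.76 at 24 h. ADAM17, a sheddase, rose by 0.70 and 0.51, and the call was lost in 3 of 16 alternatives at 12 h and in 6 of 16 at 24 h. At 24 h the heparan sulfate proteoglycans SDC2 and SDC3 fell by 0.50 and 0.72, and the heparan sulfate sulfotransferase HS2ST1 by 0.60. The SDC3 call was lost without EMD37 B at 24 h (adjusted p = 0.135 in edgeR).

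The 6 tested genes were not alike in pattern. By root mean square distance between centred log2 CPM over the 8 libraries, CXCL2 and CXCL8 were nearest (0.275), then CXCL2 and CXCL3 (0.456), and CXCL8 and CXCL16 farthest (1.82). Among 10405 other genes with a mean of at least 5 CPM, the 5 nearest to the mean pattern of the 6 were TRIB3 (0.151), MXD1 (0.213), ASNS (0.223), DNAJB1 (0.261) and TSPYL2 (0.265). The chemokine genes themselves lay farther from that mean, from 0.357 for CXCL3 to 1.03 for CXCL16, with CXCL8 at 0.909. Nearness to the mean is therefore not likeness to any 1 of them. TRIB3, a pseudokinase induced by stress, had log2 fold changes of 2.04 at 12 h and 2.10 at 24 h.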

How the data were processed

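Total RNA of MDA-MB-231 cells was made into libraries with a TruSeq V2 kit, per the labels' protocols. FastQC, STAR, DESeq2 and hg38 are named in the submitters' processing notes; the counting program and strand setting are not given in the sources available here. The authors deposited whole-number read counts per gene, used in every test, and normalized counts (signal), which equal the reads divided by 1 size factor per library. The count table as used here ends part-way through the Ensembl IDs. The normalized table held 6912 further IDs, whose reads were recovered (55296 of 55296 values whole within 0.01) and used in an alternative; CCL2 was in the count table alone.

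Genes were named with GENCODE 29. In edgeR 4.0.16 (R 4.3.3), filterByExpr at its minimum count of 10 left 14850 genes, TMM factors ranged from 0.948 to 1.03, and 1 mean per group left 4 residual degrees of freedom. Log2 fold changes were tested by the quasi-likelihood test with Benjamini-Hochberg adjustment over all genes kept at an adjusted p below 0.05. Intervals are at 95%. The fit was tested on simulated data, but no outcome is given here, so the coverage of the intervals is not shown. CPM used TMM-scaled library sizes. Alternatives were RLE factors, library totals, other filters, DESeq2 1.42.0, fits within a time, a replicate block, recovered reads and leaving out each library. The chemokines and the gene lists were chosen with earlier results of these data known. Other genes are named by rule: up to 4 called genes per list and comparison by absolute log2 fold change, and the 5 nearest in pattern. Between the times the rule also picked genes not described further. These were BCL3 (higher at 24 h) and HNRNPD (lower) in EMD37 cells, IRF1 (higher) and EXT2 (lower) in vehicle cells, and SDC4 (lower) in both. Values outside the rule were named after they were seen. They are those of CCL28, the chemokine receptors other than CCRL2, RELA, NFKB1, NFKB2, TLR4 and SDC2 at 24 h, TNF and ELAVL1. The FOS values in EMD37 cells and against vehicle are also outside it. The labels do not say what the letters A and B share, and no pairing was assumed.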

Additional observations from a re-analysis of the deposited data

Results flagged for a closer look

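The EMD37 effect differed between the times for 2 chemokine genes, CXCL8 and CXCL2. From 12 h to 24 h both rose by log2 0.31 in EMD37 libraries, and they changed by -0.38 and -0.51 in vehicle libraries, where neither change was called. For CXCL8 the effect at 24 h minus that at 12 h was log2 0.70, with log2 fold changes of 4.42 at 24 h and 3.72 at 12 h. For CXCL2 it was 0.82, with 3.99 at 24 h and 3.17 at 12 h. Each was the test of the difference itself in edgeR's quasi-likelihood fit, and the CXCL2 call was lost when any 1 of 5 libraries was left out.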

How the results depend on the processing

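With few reads, CCL20 and CXCL16 had wide intervals, and CXCL5 and CCL2 could not be tested. The count of 4 genes at 24 h held under every alternative, and the count of 5 at 12 h was 4 to 5. The count within EMD37 cells between the times was 4 and ranged from 1 to 4 over omissions of a single library. The count within vehicle cells was 1, 2 with no filter on low counts, and 1 to 2 over omissions. The count for the difference between effects was 2, and 1 to 2 over omissions. The cause was not tested.

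Uncalled log2 changes turned sign when a library was left out: CXCL16 at 12 h (-0.21 to 0.25), CCL20 in vehicle cells (-0.71 to 0.46), and the differences between effects of CXCL1 (-0.29 to 0.07) and CXCL3 (-0.05 to 0.24). Of the other alternative values of the chemokines, 413 kept direction and call, 21 lost the call and 2 gained it. For other named genes 918 kept both and 126 lost the call.

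With the replicate letter as a block, the counts were 5 at 12 h, 4 at 24 h, 3 within EMD37 cells, 1 within vehicle cells and 2 for the difference. The block ended the CXCL2 call within EMD37 cells (adjusted p = 0.0505 in edgeR). Deviations of same-letter libraries correlated at -0.16 to 0.16, so the letters were not taken to pair libraries.

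The share of all genes called higher at 12 h was 5.27% and ranged from 2.48% without EMD37 library B to 9.87% within that time's 4 libraries. The share called lower was 3.43%, from 0.679% to 7.85% under the same settings. At 24 h the shares were 19.6% higher (9.21% to 23.8%) and 21.1% lower (9.88% to 26.5%). Within EMD37 cells they were 15.5% (7.58% to 19.6%) and 15.7% (6.82% to 18.4%). Within vehicle cells they were 2.75% (0.218% to 10.1%) and 3.25% (0.352% to 5.98%), and for the difference 7.96% (3.85% to 10.4%) and 7.94% (3.29% to 10.4%).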

Other observations

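CXCL11, an interferon-induced ligand of CXCR3, had 10 and 7 reads in EMD37 libraries at 24 h, against 32 and 18 reads in EMD37 libraries at 12 h. It fell by 1.46 on the log2 scale (adjusted p = 0.0184 in edgeR's quasi-likelihood test), and the call was lost in 3 of 14 alternatives. The change was -1.06 without EMD37 A of 12 h and -1.78 without EMD37 A of 24 h. In vehicle libraries CXCL11 had 18 and 9 reads at 24 h, against 21 and 21 at 12 h (log2 -0.54, not called). The difference between the EMD37 effects was log2 -0.92 (adjusted p = 0.35 in edgeR). EMD37 against vehicle at 24 h was not called either (log2 -0.63, adjusted p = 0.332 in edgeR). CX3CL1, a membrane-anchored chemokine that did not pass the filter, had 1 and 2 reads in EMD37 libraries at 24 h, against 11 and 5 reads in vehicle libraries. At 12 h CX3CL1 had 7 and 6 reads in EMD37 libraries, against 8 and 5 reads in vehicle libraries. CCL5, whose reads were recovered from the normalized table, had 8 and 5 reads in EMD37 libraries at 12 h, against 0 and 2 reads in vehicle libraries. At 24 h CCL5 had 3 and 6 reads in EMD37 libraries, against 7 and 5 reads in vehicle libraries. CX3CL1 and CCL5 are given as counts with no test, chosen after their values were seen.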
